A study of Mus musculus with 4 samples.

Results

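The mu, kappa and omega glutathione transferases were followed in NIH-3T3 cells, an established line of mouse embryonic fibroblasts, after exposure to activators of chaperone-mediated autophagy (CMA). The genes are Gstm1 to Gstm7 of the mu class, Gstk1 of the kappa class, and Gsto1 and Gsto2 of the omega class. Their probes were taken by gene name: all gene probes whose accession maps to these symbols, which gave 18 probes for 10 of the 36838 gene names on the array. Of these names 20895 are gene symbols, and the rest are accessions of probes without a symbol. Such accessions are counted as genes wherever a share of all genes past a fold threshold is given. All 10 genes had a probe well above background on at least 1 array, and 8 had one on all 4 arrays.

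Glutathione transferases join the tripeptide glutathione to reactive, mostly fat-soluble molecules, which makes them easier to export. The mu enzymes are cytosolic, often pair with one another, and lie in a row of related genes. The kappa enzyme resides in mitochondria and peroxisomes. The omega enzymes carry a cysteine in place of the usual catalytic residue, and they reduce dehydroascorbate and methylated arsenic compounds rather than conjugating the common test substrates. Several transferase genes are known targets of NRF2, a transcription factor released from KEAP1 by electrophiles, which binds antioxidant response elements in their promoters.

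To ask how CMA activators alter gene expression, 4 cultures were profiled by the authors on a 1-colour Agilent mouse array. The label of the first culture gives no treatment (untreated). The other cultures received AR7, CA39 or CA77, each at 20 µM for 24 h. AR7 is the parent molecule, made to bind retinoic acid receptor alpha, and CA39 and CA77 were developed from it. All cells carried the label WT and had grown to confluence in medium with serum. The compounds were given in DMSO and no label gives DMSO to the untreated culture, so the effect of the vehicle and that of a compound cannot be told apart. Each group was 1 array of 1 cell line, so every difference below compares 2 arrays and no test between groups was possible.

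Levels are log2 normalized signal, and a difference is the log2 level on one array minus that on another. A difference of 1 is 2-fold. The 399 probes printed 10 times on each array gave the only repeat measurement. From it a difference of 2 arrays carries a tolerance of 0.16 (log2), or 1.12-fold. The tolerance is 1 SD of such a difference for a typical detected probe, so spot error alone can exceed it. Dim spots scatter more: a dim Gstm7 probe had a spot SD of 0.21 to 0.26. The tolerance is the error of spots within an array and leaves out the spread between cultures, which was not measured. Levels of different genes were not set against each other, since each probe has its own brightness. Where 1 of the 2 sides was not well above background, that side was raised to a floor, the 1st percentile of detected signal on its array, unless its own value was higher. Such a fold is a lower bound for the processing used, and other settings can give a smaller one. It is written "at least". In cultured cells, fewer cells making an RNA and less RNA per cell cannot be told apart.

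The untreated array detected 69.7% of gene probes, against 52.9% (AR7), 52.2% (CA39) and 61.6% (CA77) on the treated ones. Slide row cannot be told apart from treatment, because the untreated array lay in row 1 and all treated arrays in row 2. The CA77 array was read in scan 2 and the others in scan 1. Of 12 fibroblast markers 11 were detected in untreated cells and Pdgfrb was not. Of 3 hepatocyte markers 0 were above background on any array. On the CA39 array the epithelial markers Krt8 (difference 2.40), Epcam (at least 1.70) and Krt18 (1.00, at the 2-fold line) were higher and the fibroblast proteoglycan gene Lum was lower (-4.21), while 4 other fibroblast markers were past 2-fold higher. Of the fibroblast markers compared, 1 of 11 was past 2-fold with AR7 (Col1a1, lower, difference -1.05) and 0 of 11 with CA77. Of the epithelial markers 3 of 5 compared were past 2-fold with CA39, and 0 of 4 were with AR7 or CA77. All 4 leukocyte and all 4 endothelial markers on the array gave signal in untreated cells and none passed 2-fold with any compound. The part of these shifts in the values below was not tested.

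The mu genes lie side by side on mouse chromosome 3 in the order Gstm5, Gstm7, Gstm6, Gstm3, Gstm2, Gstm1, Gstm4, with 3 annotated pseudogenes among them. Gsto1 and Gsto2 are neighbours on chromosome 19, and Gstk1 lies on chromosome 6. The sequences upstream of 4 consecutive mu genes (Gstm3, Gstm2, Gstm1, Gstm4) are shown because each of these genes was higher with AR7 and with CA77 than with CA39, and that of Gstm5 because it lies in the same cluster and was highest with CA39. Each is the 250 bases before an annotated start in RefSeq, from 5′ to 3′ on the strand of the gene (GRCm38.p6). Where a gene has several starts the most upstream one was taken for display. Capitals mark matches, on either strand, to the letters listed after the sequences.
Gstm3, chr3:107969175-107969424, minus strand: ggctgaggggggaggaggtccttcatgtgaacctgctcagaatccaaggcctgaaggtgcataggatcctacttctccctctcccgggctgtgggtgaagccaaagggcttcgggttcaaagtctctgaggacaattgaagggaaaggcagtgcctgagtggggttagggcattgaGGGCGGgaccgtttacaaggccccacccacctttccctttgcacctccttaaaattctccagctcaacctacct
Gstm2, chr3:107986421-107986670, minus strand: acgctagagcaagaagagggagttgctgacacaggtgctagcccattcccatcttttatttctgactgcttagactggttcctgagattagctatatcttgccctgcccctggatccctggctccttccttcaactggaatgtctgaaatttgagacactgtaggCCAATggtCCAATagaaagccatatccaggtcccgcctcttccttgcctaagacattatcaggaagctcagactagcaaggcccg
Gstm1, chr3:108017974-108018223, minus strand: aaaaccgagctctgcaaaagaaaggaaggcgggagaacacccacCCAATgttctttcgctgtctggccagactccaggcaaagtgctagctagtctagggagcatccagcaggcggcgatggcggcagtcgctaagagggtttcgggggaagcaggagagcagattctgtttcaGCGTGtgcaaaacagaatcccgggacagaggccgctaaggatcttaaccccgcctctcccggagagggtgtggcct
Gstm4, chr3:108044860-108045109, minus strand: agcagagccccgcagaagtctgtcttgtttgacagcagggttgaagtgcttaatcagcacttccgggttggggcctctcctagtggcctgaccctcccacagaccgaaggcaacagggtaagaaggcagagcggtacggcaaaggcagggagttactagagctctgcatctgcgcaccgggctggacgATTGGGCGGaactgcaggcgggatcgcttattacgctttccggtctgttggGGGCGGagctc
Gstm5, chr3:107895604-107895853, plus strand: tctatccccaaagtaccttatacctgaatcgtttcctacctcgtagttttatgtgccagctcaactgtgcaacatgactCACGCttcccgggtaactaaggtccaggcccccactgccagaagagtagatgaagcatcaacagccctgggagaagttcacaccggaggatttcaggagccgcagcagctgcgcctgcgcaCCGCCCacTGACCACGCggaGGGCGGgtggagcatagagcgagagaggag

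The letters searched were TGACNNNGC for the core of the antioxidant response element, GCGTG for the core of the xenobiotic response element bound by the aryl hydrocarbon receptor, AGGTCA for the half-site of retinoid and other nuclear receptors, GGGCGG for the GC box, CCAAT for the CCAAT box and TATAAA for the TATA box. All 10 genes were matched, with 16 windows among them. The antioxidant core was found in windows of 2 of the 10 genes, Gstm5 and Gstm7, against 11.5% of all 27025 genes. In Gstm5 the match, TGACCACGC, lies 42 to 34 bases before the start, and a GCGTG match on the opposite strand overlaps it. In Gstm7 the match, 29 bases of which are shown with its flanks as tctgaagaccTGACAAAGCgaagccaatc (chr3:107931725-107931753, minus strand), lies 129 to 121 bases before one annotated start and downstream of another. None of the windows of Gstm1, Gstm2, Gstm3 or Gstm4 holds those letters, which says only that they are not in these windows.

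GCGTG was found for Gstm1 and Gstm5, or 2 of 10 genes against 30.9% of all genes. The half-site AGGTCA was found only for Gstk1 among the 10, on the opposite strand, 141 to 136 bases before the start (tctctggatcTGACCTtcccctttat, chr6:42245784-42245809, plus strand), and 15.8% of all genes hold it. The GC box was found for 7 of 10 genes (35.4% of all genes), all except Gstm1, Gstm2 and Gstm6. The CCAAT box was found for 6 of 10 (37.5%) and overlaps a GC box in Gstm4. The TATA box was found for Gstm1 and Gstm7, 2 of 10 (14.3%). These counts run over all windows of a gene. The TATA match of Gstm1 lies 30 to 25 bases before its other annotated start, outside the Gstm1 sequence shown, as do further CCAAT matches of that gene. A match of letters is a description and not a measured binding site.

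Of the 7 mu genes, Gstm1 to Gstm4 were higher with AR7 and with CA77 than in untreated cells, and were within or close to the tolerance with CA39. The largest of these differences was that of Gstm1 with AR7 (0.84, or 1.79-fold). Gstm5 and Gstm6 differed by at most 0.37 by their brightest probes. Gstm7 was above background only on the untreated array.

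Gstm1, an abundant liver mu enzyme, had a log2 level of 12.87 in untreated cells, 13.71 after AR7, 12.70 after CA39 and 13.63 after CA77. The AR7 and CA77 arrays were the high ones, and CA39 was slightly under untreated. The differences from untreated were 0.84 after AR7 (1.79-fold), -0.18 after CA39 and 0.76 after CA77 (1.69-fold). The CA39 difference is only just past the tolerance. The second Gstm1 probe read 11.71, 12.79, 11.61 and 12.46 in the same order of arrays. It gave the same order, with differences of 1.08 (AR7), -0.10 (CA39) and 0.74 (CA77), so that AR7 passed 2-fold by this probe and not by the brighter one.

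Gstm2, also a cytosolic mu enzyme, had levels of 14.66 in untreated cells, 15.15 after AR7, 14.81 after CA39 and 15.03 after CA77. Its differences were 0.49 after AR7 (1.40-fold), 0.15 after CA39 and 0.37 after CA77 (1.30-fold). AR7 and CA77 were past the tolerance and CA39 was just within it. By the other Gstm2 probes the AR7 difference was 0.62 and 0.43, that of CA39 0.15 and 0.09, and that of CA77 0.49 and 0.56. Thus all 3 probes placed AR7 and CA77 above CA39.

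Gstm3 had levels of 11.41 in untreated cells, 12.11 after AR7, 11.50 after CA39 and 12.08 after CA77. Its differences were 0.70 after AR7 (1.62-fold), 0.09 after CA39 and 0.67 after CA77 (1.59-fold). Only the CA39 difference lay within the tolerance. A second Gstm3 probe stayed at background on all 4 arrays and gave no difference.

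Gstm4 had levels of 10.01 in untreated cells, 10.71 after AR7, 10.11 after CA39 and 10.66 after CA77. Its differences were 0.71 after AR7 (1.63-fold), 0.10 after CA39 and 0.66 after CA77 (1.58-fold), nearly those of Gstm3. A second, dim Gstm4 probe read 6.29, 6.27, 6.18 and 6.10 and was above background only on untreated, so the pattern of Gstm4 rests on 1 probe. Gstm1 to Gstm4 are related in sequence, the probe sequences were not used here, and whether a probe also binds RNA of a neighbouring copy was not tested.

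**Figure D1:**
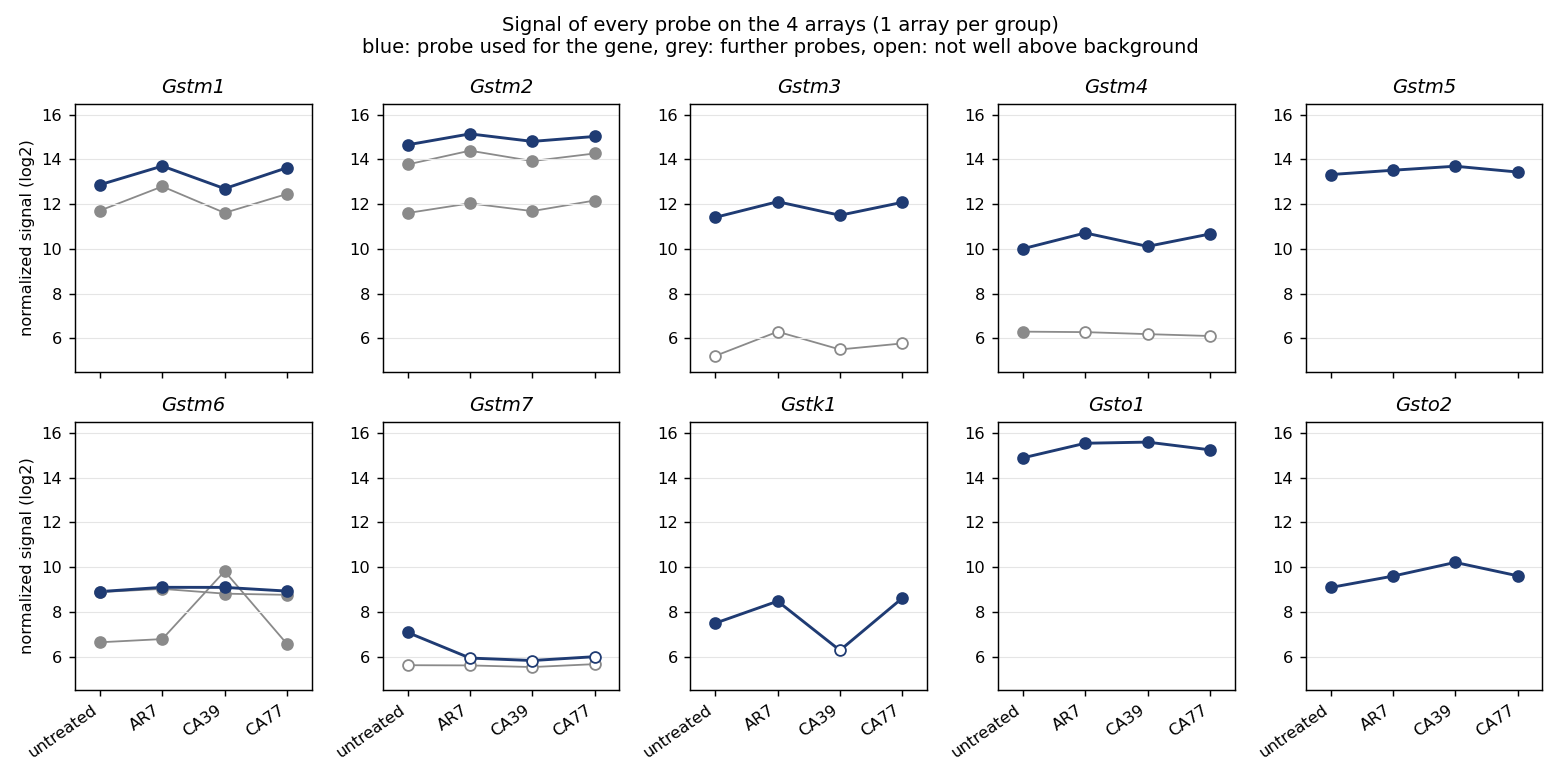
Log2 normalized signal (y axis) of every probe of the 10 genes on the untreated, AR7, CA39 and CA77 arrays (x axis), 1 array per group, with the probe used for the gene in blue, further probes in grey, and values not well above background as open points. Gstm1, Gstm2, Gstm3 and Gstm4 peak on AR7 and CA77, Gstk1 does so with a dip on CA39, and Gsto2 peaks on CA39 at 10.21.

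Gstm5, a mu form known from brain and testis and represented by 1 probe, had levels of 13.33 in untreated cells, 13.52 after AR7, 13.70 after CA39 and 13.44 after CA77. CA39 was the highest array, unlike for the 4 genes above. The differences were 0.19 after AR7, 0.37 after CA39 (1.30-fold) and 0.11 after CA77, the last within the tolerance.

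Gstm6 had levels of 8.91 in untreated cells, 9.10 after AR7, 9.09 after CA39 and 8.93 after CA77 by its brightest probe. The differences were 0.19 after AR7, 0.19 after CA39 and 0.02 after CA77, the last within the tolerance and the others just past it. A second probe gave 0.14, -0.07 and -0.12 in that order. The remaining probe disagreed. It read 6.64 in untreated cells, 6.78 after AR7, 9.82 after CA39 and 6.57 after CA77, a difference of 3.18 with CA39 that the other Gstm6 probes did not show. In scanner units its net signal was 123 in untreated cells, 139.5 after AR7, 965.5 after CA39 and 102.5 after CA77. The median difference of the 19 gene spots around it on the CA39 array was 0.12. Over 3271 genes with 2 probes, the probes' CA39 differences disagreed by a median of 0.13, and by 0.45 at the 90th percentile.

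Gstm7 had 2 probes near background. The brighter one read 7.08 in untreated cells, 5.93 after AR7, 5.82 after CA39 and 5.99 after CA77, and was well above background only on untreated. It was thus lower by at least 1.22-fold with AR7, at least 1.17-fold with CA39 and at least 1.80-fold with CA77. Over 9 other processing settings the log2 differences ranged from -1.15 to -0.20, from -1.26 to -0.16 and from -1.27 to -0.56 in that order. The other probe, printed 10 times per array, averaged 5.61 ± 0.21 (SD over 10 spots) in untreated cells, 5.60 ± 0.25 (9 spots) after AR7, 5.53 ± 0.25 (10 spots) after CA39 and 5.66 ± 0.26 (10 spots) after CA77. These means differ by less than the SD of the spots. At most 2 of its spots were above background on any array, so it bears on no difference.

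**Figure D2:**
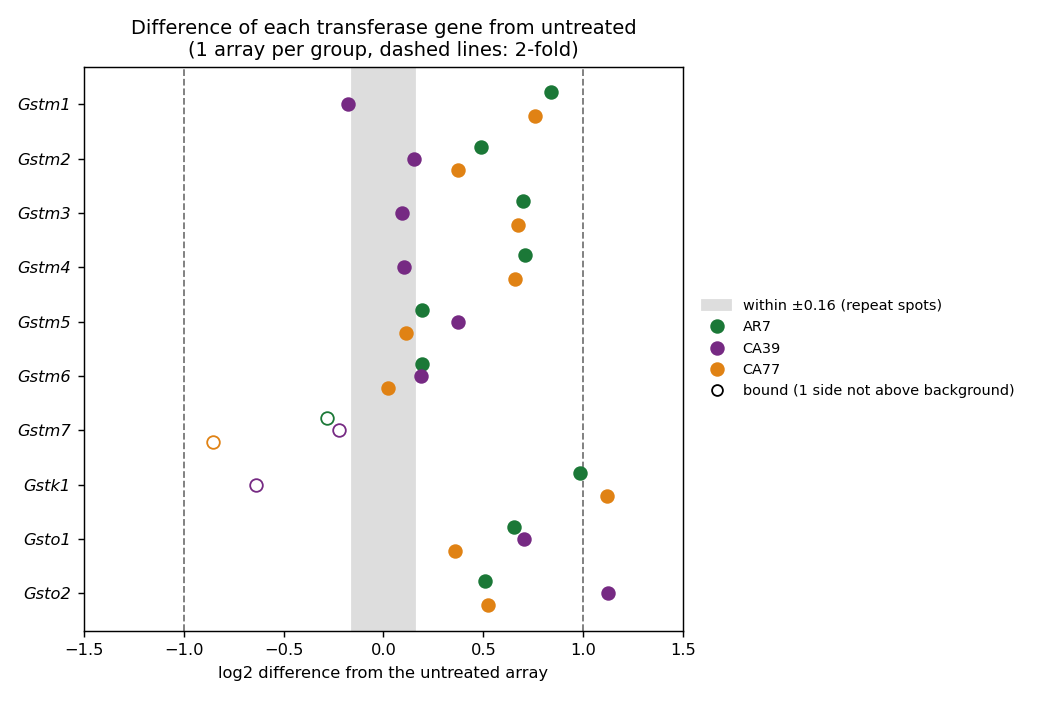
Log2 difference from the untreated array (x axis) for each of the 10 genes (y axis) with AR7, CA39 and CA77, 1 array per group, with the repeat-spot tolerance of 0.16 in grey, dashed lines at 2-fold and bounds as open points. Of the points shown only Gsto2 with CA39 (1.12) and Gstk1 with CA77 (1.12) lie past 2-fold.

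Gstk1, the kappa transferase of mitochondria and peroxisomes, was higher with AR7 and CA77, while on the CA39 array it was too dim to count as detected. Its 1 probe had levels of 7.49 in untreated cells, 8.48 after AR7, 6.28 after CA39 (not well above background) and 8.61 after CA77. The net signals behind them were dim, at 203, 406.5, 99 and 361.5 scanner units. The difference was 0.98 with AR7 (1.98-fold) and 1.12 with CA77 (2.17-fold). With CA39 the level was at least 1.56-fold lower than in untreated cells, and over other processing settings this log2 difference ranged from -1.22 to -0.47. Both AR7 and CA77 lie close to the 2-fold line, and over 9 other processing settings the differences ranged from 0.82 to 1.19 for AR7 and from 0.94 to 1.31 for CA77, so the side of the 2-fold line depended on the setting for both.

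Gsto1, an omega enzyme also known for taking glutathione off modified proteins, was higher with all 3 compounds. It had levels of 14.89 in untreated cells, 15.55 after AR7, 15.60 after CA39 and 15.25 after CA77, so that untreated was the lowest array. The differences were 0.65 after AR7 (1.57-fold), 0.70 after CA39 (1.63-fold) and 0.36 after CA77 (1.28-fold).

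Gsto2, the omega enzyme with high dehydroascorbate reductase activity, was also lowest in untreated cells. Its levels were 9.09 in untreated cells, 9.60 after AR7, 10.21 after CA39 and 9.61 after CA77, with CA39 standing above the others. The differences were 0.51 after AR7 (1.42-fold), 1.12 after CA39 (2.18-fold) and 0.52 after CA77 (1.44-fold). Each omega gene rests on 1 probe. The median differences of the spots around 17 of the member probes lay between -0.19 and 0.17 over the 3 compounds. The value of -0.19 belongs to the surroundings of the Gstm6 probe used, with AR7, and is as large as the difference of that gene but of opposite sign.

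Counted over the 10 genes, few passed 2-fold. With AR7 0 of 10 did, against 1.86% of 27855 genes higher and 0.384% lower. With CA39 1 of 10, Gsto2, was past 2-fold higher and 0 were lower, against 3.78% and 1.13% of 27894 genes. With CA77 1 of 10, Gstk1, was higher and 0 were lower, against 1.98% and 0.537% of 28128 genes. At a 1.5-fold threshold the counts were larger. AR7 had 5 of 10 genes higher (Gstm1, Gstm3, Gstm4, Gstk1 and Gsto1) against 3.31% of all genes, and 0 lower against 1.42%. CA77 had 4 higher (Gstm1, Gstm3, Gstm4 and Gstk1) against 3.89%, and 1 lower (Gstm7, by its bound) against 2.69%. CA39 had 2 higher (Gsto1 and Gsto2) against 7.03%, and 1 lower (Gstk1, by its bound) against 3.83%. The 3 comparisons share the untreated array.

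The 10 genes had a median difference of 0.58 after AR7, 0.13 after CA39 and 0.45 after CA77, while the medians over all genes were 0.00, 0.00 and 0.00. Over all genes, those whose higher side was undetected count as 0, which draws the medians and shares toward 0. Since 8 of the 10 members were detected on all arrays, the sets compared are unlike in brightness.

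**Figure D3:**
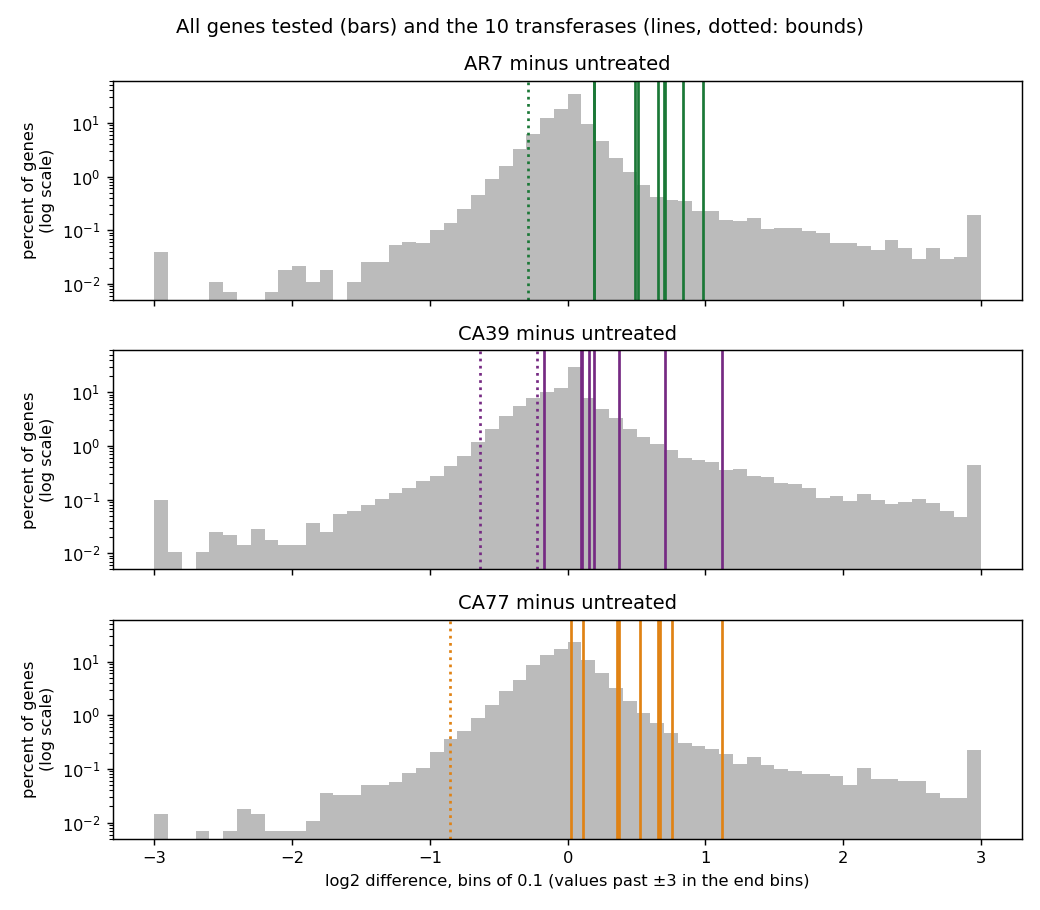
Share of all genes (y axis, percent, log scale) in bins of the log2 difference from untreated (x axis) for AR7, CA39 and CA77, with vertical lines at the values of the 10 transferases (dotted for bounds). With AR7 9 of the 10 lines lie to the right of the centre, between 0.19 and 0.98.

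The compounds were then compared directly, at the same dose and time, in 3 pairs. The untreated array is not a side of these comparisons, though it entered the normalization and the choice of probe. Each comparison rests on 2 arrays with no test. AR7 and CA77 differed least. By the probe used, 7 of 9 comparable genes differed by no more than the tolerance and 0 passed 2-fold, against 1.18% of 25343 genes higher and 1.42% lower with CA77. At 1.5-fold 0 of 9 passed, against 2.02% higher and 2.75% lower. The 2 genes outside the tolerance were Gsto1 (CA77 minus AR7, -0.29) and Gstm6 (-0.17). Gstm1 to Gstm4 gave -0.08, -0.12, -0.03 and -0.05, Gstm5 gave -0.08, Gstk1 gave 0.13 and Gsto2 gave 0.02. The second Gstm1 probe gave -0.34 and the mean over both probes -0.21, outside the tolerance. With 1 array each, equal levels are not shown by this.

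CA39 differed from AR7 in some of the genes of each class. Past 2-fold, 2 of 9 genes were lower with CA39, against 2.44% of 23071 genes: Gstm1 (-1.01, or 2.02-fold lower) and Gstk1 (at least 3.08-fold lower). For Gstk1 the log2 difference ranged from -2.20 to -1.29 over other processing settings. None of the 9 was past 2-fold higher, against 3.77%. The differences of Gstm3 (-0.61) and Gstm4 (-0.60) were past 1.5-fold, and that of Gstm2 was -0.34. Gsto2 ran the other way and was higher with CA39 by 0.61 (1.53-fold). Past 1.5-fold the counts were 4 lower and 1 higher of 9, against 6.17% and 8.15% of all genes. Gstm5 (0.18), Gsto1 (0.05) and Gstm6 (0.00) lay close to or within the tolerance by the probe used, but the deviating Gstm6 probe gave 3.04 and the mean over Gstm6 probes 0.94.

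CA77 was then set against CA39, on the same CA39 array as in the comparison with AR7, so the 2 comparisons are not independent. Gstk1 was at least 3.38-fold higher with CA77, the 1 gene of 9 past 2-fold higher, against 2.27% of 25456 genes, and 0 were past 2-fold lower, against 4.01%. For Gstk1 this log2 difference ranged from 1.41 to 2.34 over other processing settings. Gstm1 was higher with CA77 by 0.94 (1.91-fold), Gstm3 by 0.58, Gstm4 by 0.55 and Gstm2 by 0.22. Past 1.5-fold 2 of 9 were higher (Gstm1 and Gstk1) against 5.2%, and 1 was lower (Gsto2) against 8.08%. On the log2 scale CA77 minus CA39 was -0.60 for Gsto2, -0.35 for Gsto1 and -0.26 for Gstm5. For Gstm6 it was -0.17 by the probe used, -3.25 by the deviating probe and -1.16 by the mean over its probes. Gstm7 was not above background on any treated array and gave no such difference.

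Set in their order along chromosome 3, Gstm5, Gstm7 and Gstm6 at one end had differences of 0.19, -0.28 (a bound) and 0.19 with AR7. With CA77 they had 0.11, -0.85 (a bound) and 0.02. The next 4 genes, Gstm3, Gstm2, Gstm1 and Gstm4, had 0.70, 0.49, 0.84 and 0.71 with AR7, and 0.67, 0.37, 0.76 and 0.66 with CA77. The same 4 genes lay between -0.18 and 0.15 with CA39. With AR7 and CA77 the end genes lay below these 4, as a description of 7 genes on 4 arrays. With CA77 the jumps to and from Gstm7, which is near background, were larger than that from Gstm6 to Gstm3. The neighbouring pair Gsto1 and Gsto2 was higher with all 3 compounds.

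**Figure D4:**
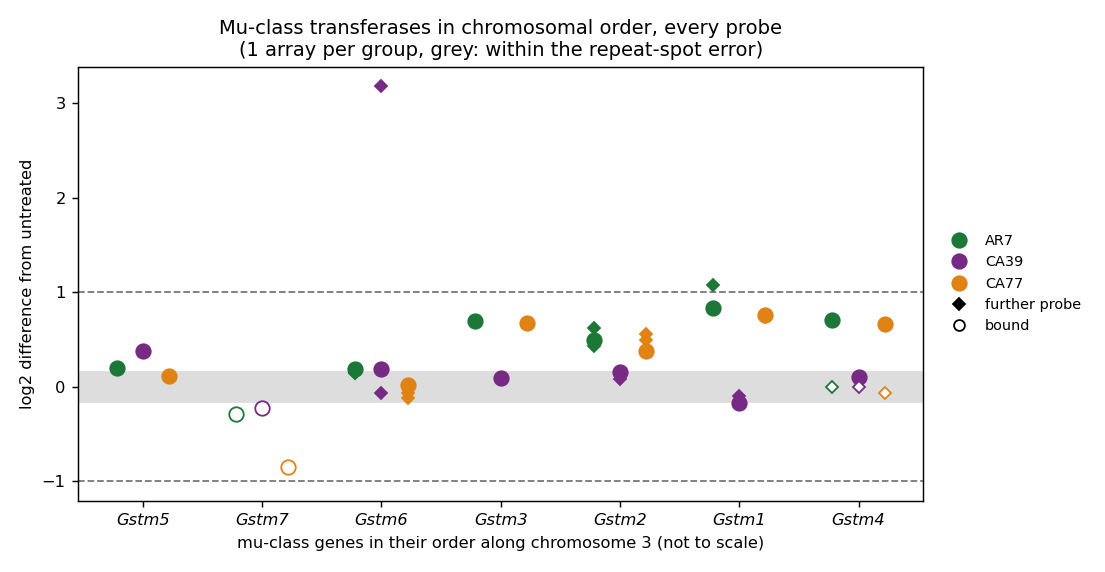
Log2 difference from untreated (y axis) of every probe of the 7 mu genes, placed in their order along chromosome 3 (x axis, not to scale), for AR7, CA39 and CA77 (1 array per group), with circles for the probe used, diamonds for further probes, open symbols for bounds (a bound of 0 gives no difference) and the tolerance in grey. The 4 genes on the right sit at 0.37 to 0.84 with AR7 and CA77 by the probe used, and 1 Gstm6 probe stands alone at 3.18 with CA39.

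By the probe used for each gene, Gsto2 with CA39 (1.12) and Gstk1 with CA77 (1.12) had the largest measured differences from untreated, which lay within the tolerance of each other. Gsto2 was ahead before rounding, but Gstk1 was ahead with 75th percentile scaling (1.22 against 1.14), with the quantile-normalized processed signal (1.31 against 1.17) and with the deposited series table (1.30 against 1.17). Genes with values most like those of Gsto2 were sought among 13019 genes with a RefSeq symbol and signal above background on all arrays. Likeness was the Euclidean distance over the 3 log2 differences. The nearest were Slc22a18 at 0.16 (0.54 after AR7, 0.97 after CA39 and 0.55 after CA77), Dpf1 at 0.19 (0.65, 1.09 and 0.64) and Cyp27b1 at 0.20 (0.45, 1.13 and 0.33).

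The wider glutathione pathway was described by a list of 35 other genes, of which 34 were on the array, 32 could be compared and Gsta1 was not matched. With AR7 6 of 32 were past 2-fold higher and 0 were lower, against 1.86% and 0.384% of all genes. They were the alpha transferases Gsta2 (7.53), Gsta3 (3.69) and Gsta4 (4.70), the theta transferase Gstt2 (2.70), the membrane transferase Mgst1 (1.08) and Slc7a11 (1.67), the cystine carrier that feeds glutathione synthesis. With CA77 3 of 32 were higher, Gsta2 (6.87), Gsta3 (3.00) and Gsta4 (4.19), and 0 were lower, against 1.98% and 0.537% of all genes. Each of these alpha gene differences was larger than any of the mu, kappa or omega genes with the same compound.

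With CA39 4 of 32 were past 2-fold higher and 2 were lower, against 3.78% and 1.13% of all genes. Higher were Slc7a11 (2.07), Gsta4 (1.16), Chac1 (1.99), whose enzyme degrades glutathione, and Anpep (1.52), an aminopeptidase. Lower were the theta transferases Gstt1 (-1.53) and Gstt3 (-1.06). Gsta2 was not above background with CA39, and Gsta3 had a difference of -0.05. The 32 genes had a median difference of 0.23 after AR7, -0.03 after CA39 and 0.21 after CA77.

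Gclc encodes the catalytic subunit of the enzyme that limits glutathione synthesis (0.58 after AR7, -0.10 after CA39 and 0.25 after CA77) and Gclm its regulatory subunit (0.93, -0.04 and 0.19). Of the 7 genes of conjugate export and processing, 0 were past 2-fold with AR7 or CA77, and 1 (Anpep, higher) was with CA39. Over all genes 1.86% (AR7), 3.78% (CA39) and 1.98% (CA77) were higher, and 0.384%, 1.13% and 0.537% lower. Counts this small say nothing about the list. Their median difference was 0.33 after CA77, with all 7 detected. The medians of 0.0 after AR7 and CA39 are entered zeros of Abcc2 and Dpep1, and with AR7 also Anpep, which gave no difference. Among the export pumps of this list, Abcc1 had 0.60, -0.15 and 0.33, Abcc4 had 0.93, 0.00 and 0.49, and Abcc5 had 0.23, -0.04 and 0.08. Abcc3 ran the other way, with -0.39, 0.41 and -0.35, and Abcc2 gave a difference only with CA77 (0.49). None of the 4 related thiol enzymes Glrx, Glrx2, Glo1 and Hagh was past 2-fold with any compound. At shares of 1.86% to 3.78% of all genes higher and 0.384% to 1.13% lower, a count of 0 of 4 says nothing about these enzymes. Gstp1, of the pi class, had 0.82 after AR7, -0.27 after CA39 and 0.63 after CA77, against 0.84, -0.18 and 0.76 for Gstm1. Of 10 genes listed for NRF2 and its targets, 3 were past 2-fold higher with AR7 (1.86% of all genes), namely Nqo1 (2.25), Ptgr1 (1.85) and Slc7a11 (1.67). With CA77 2 were (1.98% of all genes), Nqo1 (2.29) and Ptgr1 (1.86). With CA39 3 were (3.78% of all genes), Hmox1 (1.21), Ptgr1 (1.40) and Slc7a11 (2.07), while Nqo1, a quinone reductase, had 0.37. None of the 10 was past 2-fold lower, and their median difference was 0.81, 0.02 and 0.42 for AR7, CA39 and CA77. Nfe2l2, which encodes NRF2 itself, had 0.20, -0.22 and 0.46 in that order.

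**Figure D5:**
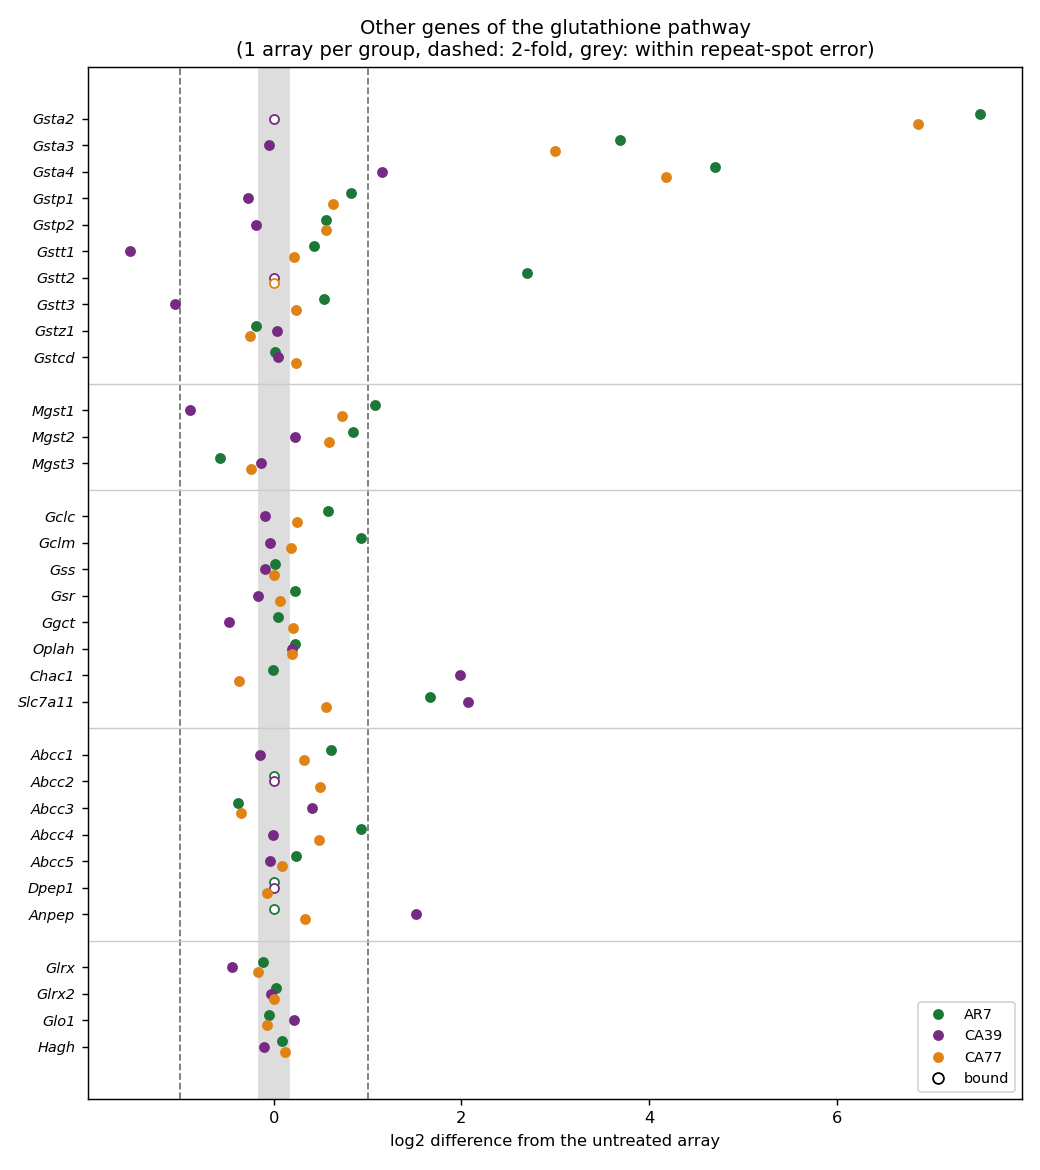
Log2 difference from untreated (x axis) of 32 other glutathione pathway genes (y axis), in groups from top to bottom: other cytosolic transferases, membrane transferases, synthesis and recycling, export and processing, and related thiol enzymes, 1 array per compound, where open points at 0 are genes that gave no difference because 1 side was not well above background. Gsta2, Gsta3 and Gsta4 stand between 3.00 and 7.53 with AR7 and CA77.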

How the data were processed

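RNA of 4 NIH-3T3 cultures was labelled with Cy3 by the authors (0.6 µg per array), hybridised to an Agilent mouse 8x60K array and read with Feature Extraction 10.7.3.1. Each deposited scanner file gives linear intensities and quality marks of 62976 spots. The series table that the authors deposited held the same intensities after background subtraction at all spots, within 0.001 times the value, or 0.001 where the value was under 1. The labels name the oligo package and RMA, whose values were not used here. The array design was built on mm9, so names came from RefSeq accessions of GRCm38.p6 (27512 of 55378 probes named, 20895 symbols), and no gene coordinates are given beside the upstream sequences.

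The median intensity of each spot was corrected for its local background by the normal-exponential method, with no offset and over all spots (limma 3.58.1, R 4.3.3). Control spots and outlier spots (142 for untreated and 328, 328 and 321 for AR7, CA39 and CA77) were removed before quantile normalization across arrays, and log2 values were taken. No spot was saturated (0 on each array). A probe counted as detected if the scanner software marked more than 50% of its spots as well above background. The probe with the highest mean stood for its gene, and all other member probes are given. Floors (log2) were 5.82 for untreated and 6.79, 6.85 and 6.23 for AR7, CA39 and CA77. Where the higher side of a difference was undetected, 0 was entered. With 1 array per group no test was run, and the number of arrays limits the precision. The scripts were tested on simulated data in which 200 of the brighter spots were changed by more than 2-fold. Smaller changes and dim probes were not covered by that test. Named genes were all members, the pathway genes past 2-fold, and the 3 genes nearest to the leading member. Any other gene was named with its values in view. The members, gene lists and comparisons were chosen with earlier results of these data known.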

Additional observations from a re-analysis of the deposited data

How the results depend on the processing

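In all, 9 other settings and a 1.5-fold threshold were tried. The 27 alternative values of the members' median difference all moved by less than the tolerance of 0.16. Of 498 alternative values for single genes 456 moved by less than the tolerance, 42 moved more, and 0 of the differences past 2-fold changed sign. Of 60 alternative counts of genes past 2-fold 20 moved by over 1.5 times. At 1.5-fold the counts were 5 for AR7 against untreated (0 at 2-fold), 3 for CA39 (1), 5 for CA77 (1), 5 for CA39 against AR7 (2) and 3 for CA77 against CA39 (1). For AR7 against untreated the count was 1 with 75th percentile scaling, with the quantile-normalized processed signal and with the deposited series table, in each case Gstk1, and 1 with a floor at the lowest detected signal and with no floor, in each case Gstm7. For CA77 against untreated each of these 5 settings gave 2, Gstk1 and Gstm7, and a background offset of 50 gave 0. For CA39 against untreated the lowest floor gave 2 (Gstk1 and Gsto2), no floor gave 3 (with Gstm7), and the mean over probes gave 2 (Gstm6 and Gsto2), from the deviating Gstm6 probe. That mean also gave 2 for CA77 against CA39 (Gstm6 and Gstk1). With probes in grid rows over 160 only, Gstm4 rested on its dim probe, which was not detected on any treated array. Its difference with AR7 was then entered as 0.0, and with CA77 a bound of -0.07 replaced 0.66. The sign of a difference past 1.5-fold thus changed, but only through a bound and not a measured value. This setting leaves out the brighter Gstm4 probe and gives Gstm5 and Gsto1 no value. No paired analysis was possible because each group has 1 array, which also left no replicate to leave out. Values of Gstm7 and Gstk1 are limited by signal near background.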
